A study of Mus musculus with 8 samples.

Results

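The genes described are *Ccl5* and 8 genes that flank its deleted proximal enhancer on mouse chromosome 11, namely *Heatr9*, *Taf15*, *Mmp28* and *Ap2b1* on the side of *Ccl5*, and *Ccl9*, *E230016K23Rik*, *Ccl6* and *Heatr6* on the other side. They were chosen by name as genes lying within about 250 kb of the deletion, and these 9 genes were read from count tables that list 48321 gene symbols. RNA-seq was performed on natural killer (NK) cells freshly sorted from lung and spleen as CD45+ TCRb- NK1.1+ cells of C57/Bl6 mice, aged from 1.5 to 4 months and of mixed sexes by the study's methods. In both organs WT mice were compared with KO mice, whose 2 *Ccl5* alleles lack a 185 bp element called Ccl5-PE, the proximal enhancer, after CRISPR editing (Ccl5 ΔPE/ΔPE). Each of the 4 groups (lung WT, lung KO, spleen WT and spleen KO) held 2 libraries, and no other agent was given. The deletion was carried by the mouse line and was not limited to NK cells, and the lines were housed and bred apart, so that genotype and colony cannot be told apart.

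CCL5 (RANTES) is a CC chemokine, a small secreted protein that draws leukocytes through receptors such as CCR1 and CCR3. Most CC chemokine genes are switched on within hours of a stimulus, whereas NK cells and memory T cells hold *Ccl5* mRNA at rest. An enhancer is a stretch of DNA outside a promoter that binds transcription factors and raises transcription of genes on the same chromosome. Ccl5-PE also carries recognition sequences for the RUNX factors, which the study reports to repress its activity in T cells. The question addressed here is how *Ccl5* and the genes around it were expressed once this element was gone.

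*Ccl5* (ENSMUSG00000035042) lies on the minus strand at chr11:83525778-83530518 in GRCm38 (GENCODE M21), and its transcription start is 4.6 kb from the deletion, which overlaps no annotated gene. *Heatr9* (ENSMUSG00000018925, chr11:83511736-83522175) follows on the same strand and starts 3.6 kb beyond the end of *Ccl5*. *Taf15* (ENSMUSG00000020680, chr11:83473086-83506743) ends 28.4 kb from the deletion. Further away lie *Mmp28* (ENSMUSG00000020682, chr11:83440768-83463071) at 72 kb and *Ap2b1* (ENSMUSG00000035152, chr11:83299024-83405035) at 130.1 kb. On the other side, the genes nearest to the deletion are *Ccl9* (ENSMUSG00000019122, chr11:83572919-83578636) at 37.6 kb and the non-coding *E230016K23Rik* (ENSMUSG00000051832, chr11:83582056-83623693) at 46.8 kb. *Ccl6* (ENSMUSG00000018927, chr11:83587882-83593087) at 52.6 kb lies inside the span of *E230016K23Rik* on the opposite strand, with 0 bp of shared exon. *Heatr6* (ENSMUSG00000000976, chr11:83753696-83783754) is the most distant of these genes, at 218.4 kb.

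**Figure D1:**
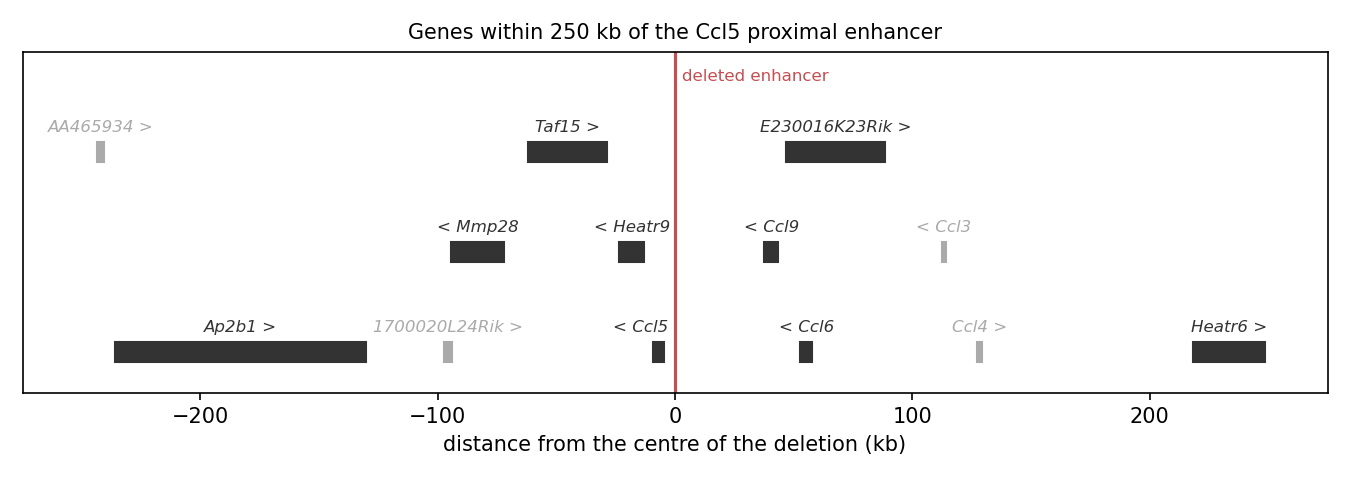
Map of genes tested within 250 kb of the deletion, drawn to scale by distance in kb from its centre (red line), with the described genes in black and 4 others in grey. The signs < and > give the strand, and the vertical position only separates labels. *Ccl5* and *Heatr9* lie side by side on the left of the deletion, and *Ccl9* and *Ccl6* on the right.

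The bases upstream of the start sites of *Heatr9*, *Ccl9* and *Ccl6* are shown because these genes, apart from *Ccl5*, changed at least 2-fold in both organs. RefSeq windows (GRCm38.p6) matched 8 of the 9 genes, all but *Ccl5*, and each sequence reads 5′ to 3′ on the minus strand. The windows are chr11:83522176-83522349 for *Heatr9* (174 bases, trimmed at the start that GENCODE gives), chr11:83578637-83578886 for *Ccl9* and chr11:83593088-83593337 for *Ccl6* (250 bases each). Capitals in the *Ccl9* and *Ccl6* windows mark the longest run of bases that they share.
Heatr9: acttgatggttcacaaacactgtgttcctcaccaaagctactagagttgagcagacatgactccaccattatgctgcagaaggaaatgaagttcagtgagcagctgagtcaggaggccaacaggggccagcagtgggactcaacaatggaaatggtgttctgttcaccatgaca
Ccl9: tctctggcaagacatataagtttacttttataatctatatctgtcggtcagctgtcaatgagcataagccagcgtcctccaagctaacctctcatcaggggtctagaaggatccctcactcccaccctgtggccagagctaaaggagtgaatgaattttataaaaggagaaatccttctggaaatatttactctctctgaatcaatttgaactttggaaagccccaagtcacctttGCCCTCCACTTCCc
Ccl6: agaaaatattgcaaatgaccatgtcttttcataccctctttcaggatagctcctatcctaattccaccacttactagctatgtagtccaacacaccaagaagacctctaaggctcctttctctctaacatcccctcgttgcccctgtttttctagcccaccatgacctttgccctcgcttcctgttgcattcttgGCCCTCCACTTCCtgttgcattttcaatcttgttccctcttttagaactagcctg
The shared run has 13 bases and starts 14 bases before the start of *Ccl9* and 55 bases before the start of *Ccl6*. On either strand, it stands in 5 of 32851 RefSeq windows of this length (0.0152%). The run was picked because the *Ccl9* and *Ccl6* windows share it, so both are among the 5. The share is therefore no measure of how unusual the run is. RUNX recognition heptamers, spelled AACCACA or with its variants AACCGCA and also GACCACA and also GACCGCA on either strand, stood in none (0) of the 8 windows of these genes and in 3427 of all 32851 windows (10.4%). These are descriptions of letters in windows of 250 bases, and they say nothing about binding.

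Library totals ran from 3132963 to 26482366 reads counted on genes and the shallowest and deepest libraries were both of spleen KO (replicates 1 and 2). In the shallowest library a count of 3 reads corresponded to 0.979 CPM (reads scaled to a common library size), a floor that covers counting error only. The sort was visible in the counts, as 11 of 11 NK cell markers passed the filter on low counts and their summed level was 38152 to 54978 CPM per library, against 38.9 to 157 CPM for 6 T cell markers. All 9 genes passed the filter and are among 12595 genes tested in 1 fit to all 8 libraries by edgeR's quasi-likelihood test, with p adjusted by Benjamini-Hochberg over all genes tested and a call at a false discovery rate (FDR) of 0.05. Fold changes are given on the log2 scale, with KO against WT unless stated, and their intervals cover 95%. The libraries of a group lay close together, with a common biological coefficient of variation of 2.50%, so that small differences passed the test for most genes. The labels do not tie libraries to individual animals, so p-values measure the spread between libraries, which may be technical. In bulk RNA, fewer cells that carry a transcript and less of it per cell cannot be told apart.

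*Ccl5* fell to 16.3% of its WT level in lung NK cells and to 15.7% in spleen NK cells. In lung it was counted at 19518 and 18350 CPM in the WT libraries and at 2992 and 3195 CPM in the KO libraries. In spleen, the WT libraries held 16679 and 15664 CPM and the KO libraries 2676 and 2432 CPM. The genotypes did not overlap in either organ, and the spread within a group was small beside the difference. The log2 fold change was -2.61 (SE 0.04, interval -2.70 to -2.53, adjusted p = 2.3e-35 by edgeR) in lung and -2.67 (SE 0.04, interval -2.75 to -2.58, adjusted p = 1.4e-35 by edgeR) in spleen, and in both organs *Ccl5* ranked 1 by p among all genes tested.

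The fall took *Ccl5* from the top of the NK cell transcriptome to a lower but still high place. By read count, it was the gene ranked 2 in both lung WT libraries and 1 in both spleen WT libraries. In KO it ranked 15 and 14 in lung and 28 and 33 in spleen. Of all counted reads, *Ccl5* took 1.62% to 1.86% in WT and 0.240% to 0.326% in KO, so that transcripts remained in every KO library.

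The difference between the *Ccl5* effect in lung and in spleen was 0.05 on the log2 scale (SE 0.06, interval -0.06 to 0.17, adjusted p = 0.42 by edgeR) and did not pass the test. This result depended on scaling. With library totals in place of TMM factors the difference was 0.22 (adjusted p = 0.00098), and with a correction for each library's trend with GC content it was -0.30 (adjusted p = 7.3e-06), of opposite sign. The organ mattered little beside the genotype. *Ccl5* was higher in lung than in spleen by 0.23 log2 units in WT (SE 0.04, adjusted p = 6.1e-06 by edgeR) and by 0.28 in KO (SE 0.04, adjusted p = 1.8e-07 by edgeR). The order of the 4 groups was lung WT, spleen WT, lung KO and spleen KO, and neighbours in this order did not overlap. Both organ differences lost their call when a biological coefficient of variation of 0.2 was assumed for every gene, and the one in KO also lost it with the GC correction, where it was 0.075 (adjusted p = 0.092 by edgeR).

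**Figure D2:**
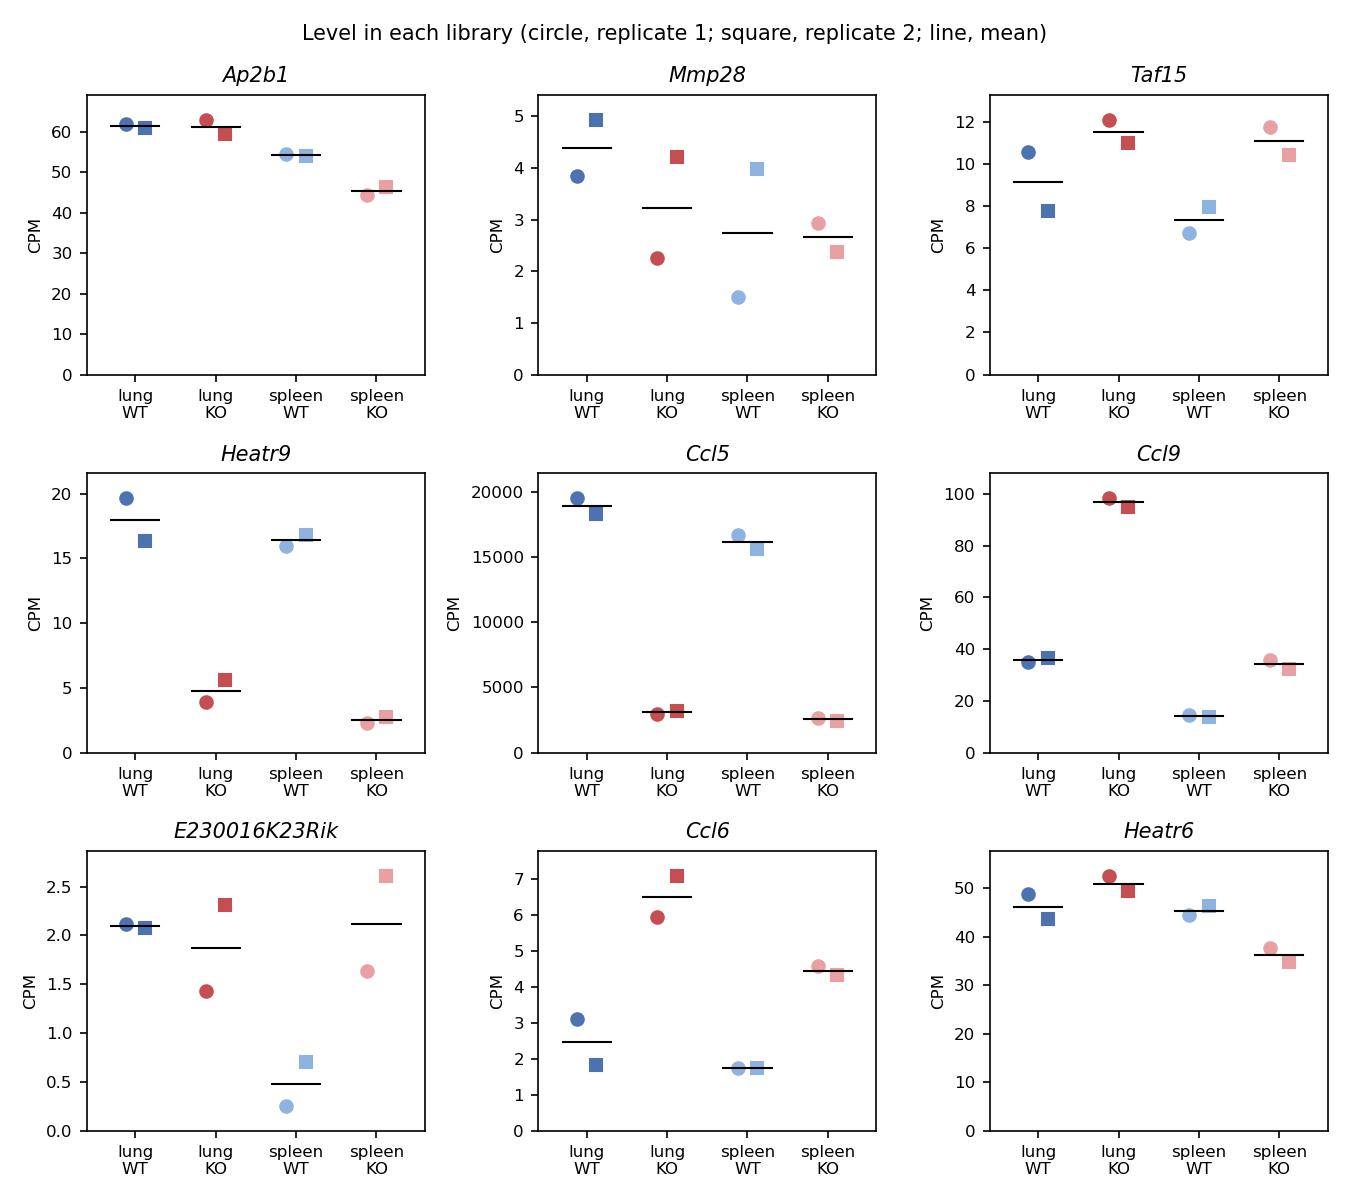
Level of each gene in CPM (vertical axis from 0, scaled separately for each gene) in the 8 libraries, by organ and genotype, with circles for replicate 1, squares for replicate 2 and lines for the mean of 2 libraries. *Ccl5* and *Heatr9* are low in all 4 KO libraries, *Ccl9* and *Ccl6* are high in them relative to WT of the same organ, and the other 5 genes show smaller or less even differences.

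*Heatr9*, a gene for a HEAT repeat protein of little known function, fell together with *Ccl5*. In lung it was counted at 19.6 and 16.3 CPM in WT and at 3.89 and 5.58 CPM in KO. In spleen, the values were 16.0 and 16.8 CPM in WT and 2.29 and 2.76 CPM in KO. No KO library reached a WT library. These levels rest on 63 to 158 reads per WT library and on 7 to 72 reads per KO library. KO differed from WT by a log2 fold change of -1.91 (SE 0.20, interval -2.31 to -1.52, adjusted p = 1.7e-10 by edgeR) in lung and -2.61 (SE 0.19, interval -2.98 to -2.23, adjusted p = 2.1e-14 by edgeR) in spleen.

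*Heatr9* was also read relative to *Ccl5*. For every 1000 *Ccl5* reads, 1.01 and 0.889 *Heatr9* reads were counted in lung WT and 1.30 and 1.75 in lung KO. For spleen, WT libraries gave 0.958 and 1.07 and KO libraries 0.854 and 1.13. It was highest in lung KO, where *Heatr9* fell less than *Ccl5*, and WT and KO libraries of spleen overlapped. The *Heatr9* effect in lung was smaller than that in spleen by 0.69 log2 units (SE 0.29, interval 0.10 to 1.28, adjusted p = 0.038 by edgeR), but this call was lost with DESeq2 (adjusted p = 0.21), without a filter (adjusted p = 0.053), with the GC correction (adjusted p = 0.056), and without any one of 4 single libraries, namely replicate 2 of each of the 4 groups, where it lay between 0.36 and 0.93. *Heatr9* lies downstream of *Ccl5* on the same strand. Its level per kb of exon in WT was 9.59 ± 1.25 RPKM in lung and 8.75 ± 0.316 RPKM in spleen (SD, n = 2), against 19723 ± 860 and 16845 ± 748 RPKM (SD, n = 2) for *Ccl5*. Whether reads of the abundant neighbour, such as transcripts that run past its end, enter the *Heatr9* count was not tested.

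**Figure D3:**
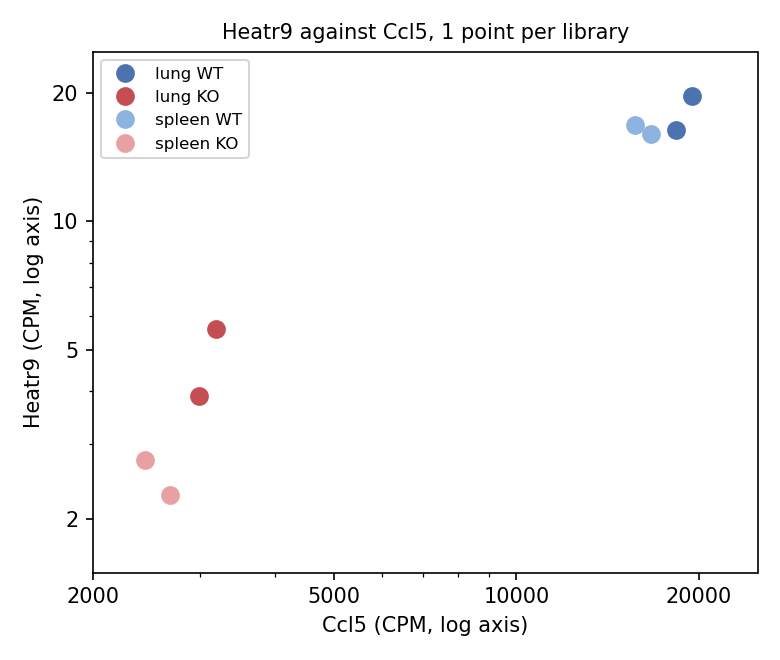
Level of *Heatr9* against that of *Ccl5* in CPM, with both axes logarithmic and 1 point for each of 8 libraries, coloured by organ and genotype. The 4 WT libraries lie at the upper right, between 15664 and 19518 CPM of *Ccl5*, and the 4 KO libraries at the lower left, between 2432 and 3195 CPM.

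*Ccl9* and *Ccl6*, the nearest protein-coding genes on the far side of the deletion, rose in KO in both organs. They encode CC chemokines of the MIP-1 family that act through CCR1 and are best known from myeloid cells. *Ccl9* was counted at 34.9 and 36.5 CPM in lung WT and at 98.2 and 95.1 CPM in lung KO. In spleen, it stood at 14.5 and 13.9 CPM in WT and at 35.9 and 32.3 CPM in KO. KO libraries lay above the WT libraries of their organ without overlap, although spleen KO only reached the level of lung WT. The log2 fold change was 1.44 (SE 0.08, interval 1.28 to 1.61, adjusted p = 3.8e-17 by edgeR) in lung, a 2.72-fold rise, and 1.22 (SE 0.11, interval 1.0 to 1.44, adjusted p = 1.0e-11 by edgeR) in spleen, a 2.33-fold rise.

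*Ccl6* was counted on few reads, 7 to 113 per library. It stood at 3.11 and 1.81 CPM in lung WT and at 5.94 and 7.07 CPM in lung KO. In spleen it was at 1.75 CPM in both WT libraries, and at 4.57 and 4.33 CPM in KO. The groups did not overlap in either organ, and lung WT had the widest spread. KO differed from WT by a log2 fold change of 1.30 (SE 0.29, interval 0.72 to 1.88, adjusted p = 0.00022 by edgeR) in lung and 1.31 (SE 0.31, interval 0.69 to 1.93, adjusted p = 0.00039 by edgeR) in spleen. Leaving out replicate 1 of lung WT moved the lung value to 1.85 and leaving out replicate 2 moved it to 1.08, and it passed the test both times.

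The rises of *Ccl9* and *Ccl6* did not differ detectably between organs. The difference of effects was 0.22 for *Ccl9* (interval -0.08 to 0.52, adjusted p = 0.19 by edgeR) and -0.01 for *Ccl6* (interval -0.74 to 0.72, adjusted p = 0.996 by edgeR), and for *Ccl9* it passed the test with library totals (0.38, adjusted p = 0.024) and with the GC correction (0.41, adjusted p = 0.016). *Ccl9* differed strongly by organ. It was higher in lung than in spleen by 1.33 log2 units in WT (SE 0.12, adjusted p = 9.1e-12 by edgeR) and by 1.55 in KO (SE 0.07, adjusted p = 1.6e-20 by edgeR). For *Ccl6* the same difference was 0.61 in WT (SE 0.39, adjusted p = 0.18 by edgeR) and 0.60 in KO (SE 0.22, adjusted p = 0.017 by edgeR). The latter call was lost with a replicate block (0.56, adjusted p = 0.27), with DESeq2 (adjusted p = 0.31), and without replicate 2 of lung KO (0.44, adjusted p = 0.24) or of spleen KO (0.54, adjusted p = 0.29). Per 100 *Ccl9* reads, 4.96 to 8.90 *Ccl6* reads were counted in the lung libraries and 12.1 to 13.4 in those of spleen, whatever the genotype.

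Both chemokines remained far below *Ccl5*. *Ccl9* reads came to 0.0869% to 0.199% of *Ccl5* reads in WT and to 1.33% to 3.28% in KO. As these genes are best known from myeloid cells, 14 macrophage and monocyte markers were read in the same libraries. Their summed level was 1254 to 1297 CPM in lung WT and 1222 to 1248 CPM in lung KO, while spleen libraries had 1300 to 1386 CPM (WT) and 1592 to 1619 CPM (KO), most of it from *Ccr2* and *Ly6c2*, which NK cells also express. Of the 14 markers, 7 were tested, and 2 rose and 3 fell in lung while 2 rose and 1 fell in spleen, beside 29.2% higher and 26.4% lower of all genes in lung and 28.2% and 28.9% in spleen. *Adgre1*, a defining macrophage marker, was at 0 in every library, and *C1qa*, *C1qb* and *C1qc* held 0 to 3 reads. *Lyz2* stood at 12.2 and 15.8 CPM in lung WT and 23.5 and 25.2 CPM in lung KO (log2 fold change 0.87, adjusted p = 1.8e-05 by edgeR), and in spleen it lay between 1.63 and 4.10 CPM in all 4 libraries (log2 fold change 0.37, adjusted p = 0.28 by edgeR). *Csf1r* did not pass the test in lung (-0.05) or in spleen (0.15). *Mrc1* held 18 and 11 reads in lung WT, 1 and 2 reads in lung KO and none (0) in spleen. Mean *Cd68* was 15.0 CPM in lung WT and 9.77 CPM in lung KO, and 13.9 and 20.1 CPM in spleen. Of 5 neutrophil markers, 4 were at 0 in every library. The other, *Ly6g*, held 19 and 0 reads in lung WT and 0 and 1 in lung KO. In spleen it held 7 and 0 reads in WT and 3 and 50 in KO. On these few reads it was called lower in lung KO and higher in spleen KO. Markers of lung epithelium and endothelium (5 genes) summed to 317 to 323 CPM in lung WT and 441 to 480 CPM in lung KO, and those of NK cells to 53487 to 54978 CPM and 42945 to 43281 CPM. In spleen, NK cell markers instead summed to 38152 to 38747 CPM in WT and 49329 to 51632 CPM in KO. *Gzma* held much of these sums, with means of 24832 (WT) and 18000 CPM (KO) in lung and 15486 and 21991 CPM in spleen. *Prf1* moved against the sums, with means of 1509 and 2515 CPM in lung and 1311 and 938 CPM in spleen. Of the 11 NK cell markers, 2 rose and 6 fell in lung, and 8 rose and 2 fell in spleen. The part of other cells in the *Ccl9* and *Ccl6* counts was not tested.

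*Taf15*, which encodes an RNA-binding protein of the FET family, stood at 10.6 and 7.77 CPM in lung WT and at 12.1 and 11 CPM in lung KO. In spleen it was at 6.74 and 7.95 CPM in WT and at 11.8 and 10.4 CPM in KO. KO libraries were higher than WT libraries in both organs, with a wide spread in lung WT. The log2 fold change was 0.25 (interval -0.12 to 0.62, adjusted p = 0.25 by edgeR) in lung and 0.49 (SE 0.17, interval 0.14 to 0.84, adjusted p = 0.015 by edgeR) in spleen. The call in spleen was lost with DESeq2 (adjusted p = 0.15), with an assumed coefficient of variation of 0.2 (adjusted p = 0.38), and without replicate 1 of spleen WT (adjusted p = 0.077), replicate 2 of spleen WT (adjusted p = 0.051) or replicate 2 of spleen KO (adjusted p = 0.080). *Taf15* begins 62.0 kb from the deletion and its body points toward it.

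*E230016K23Rik*, the non-coding gene that spans *Ccl6*, was counted on 1 to 68 reads per library. In lung it stood at 2.11 and 2.07 CPM in WT and at 1.43 and 2.31 CPM in KO. In spleen the WT libraries held 0.250 and 0.701 CPM and the KO libraries 1.63 and 2.60 CPM. Spleen WT alone lay below the other groups, and it rests on 1 and 6 reads. KO differed from WT by a log2 fold change of -0.10 (interval -0.93 to 0.73, adjusted p = 0.86 by edgeR) in lung and 2.13 (SE 0.47, interval 1.19 to 3.07, adjusted p = 0.00018 by edgeR) in spleen. The difference of the 2 effects was -2.23 (SE 0.65, adjusted p = 0.0032 by edgeR). Without the deep replicate 2 of spleen KO, the spleen value was 1.52 (adjusted p = 0.21) and the difference -1.62 (adjusted p = 0.19), and neither passed. Without replicate 2 of spleen WT, the spleen value was 3.23. As strand use in counting is not given in the sources used here, intronic or antisense reads of the *Ccl6* region cannot be assigned with certainty to either gene.

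*Mmp28* encodes epilysin, a secreted metalloproteinase. Its lung libraries held 3.85 and 4.92 CPM in WT and 2.25 and 4.22 CPM in KO. Its spleen libraries held 1.5 and 3.97 CPM in WT and 2.94 and 2.37 CPM in KO. The genotypes overlapped in both organs. Neither the log2 fold change in lung (-0.30, interval -0.97 to 0.37, adjusted p = 0.46 by edgeR) nor that in spleen (-0.37, interval -1.02 to 0.29, adjusted p = 0.34 by edgeR) passed the test, and the counts were low, 6 to 62 reads per library. With a GC offset and replicate block together the lung value was -0.82 and passed (adjusted p = 0.028). The gene shares 466 bp of exon (12% of its exons) with *1700020L24Rik* on the other strand.

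*Ap2b1*, which encodes the beta subunit of the clathrin adaptor AP-2, was measured with 136 to 1208 reads. It stood at 62.0 and 60.9 CPM in lung WT and at 62.8 and 59.5 CPM in lung KO. In spleen it was at 54.5 and 54.1 CPM in WT and at 44.4 and 46.3 CPM in KO. The genotypes overlapped in lung and not in spleen. The log2 fold change was -0.02 (interval -0.18 to 0.14, adjusted p = 0.87 by edgeR) in lung and -0.24 (SE 0.07, interval -0.39 to -0.09, adjusted p = 0.0065 by edgeR) in spleen, and the spleen call was lost with DESeq2 (adjusted p = 0.14), with an assumed coefficient of variation of 0.2 (adjusted p = 0.69), and without replicate 2 of spleen WT (adjusted p = 0.075) or of spleen KO (adjusted p = 0.089).

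*Heatr6*, another HEAT repeat gene, had 115 to 909 reads per library. It stood at 48.9 and 43.5 CPM in lung WT and at 52.4 and 49.4 CPM in lung KO. In spleen it was at 44.5 and 46.3 CPM in WT and at 37.5 and 34.8 CPM in KO. The lung libraries moved slightly up and the spleen libraries down. KO differed from WT by a log2 fold change of 0.11 (interval -0.07 to 0.29, adjusted p = 0.31 by edgeR) in lung and -0.37 (SE 0.08, interval -0.54 to -0.20, adjusted p = 0.00027 by edgeR) in spleen, and their difference was 0.48 (SE 0.12, adjusted p = 0.00086 by edgeR). The spleen call was lost with DESeq2 (adjusted p = 0.052), with an assumed coefficient of variation of 0.2 (adjusted p = 0.59) and without replicate 2 of spleen KO (adjusted p = 0.13), and the difference lost its call under the same alternatives.

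**Figure D4:**
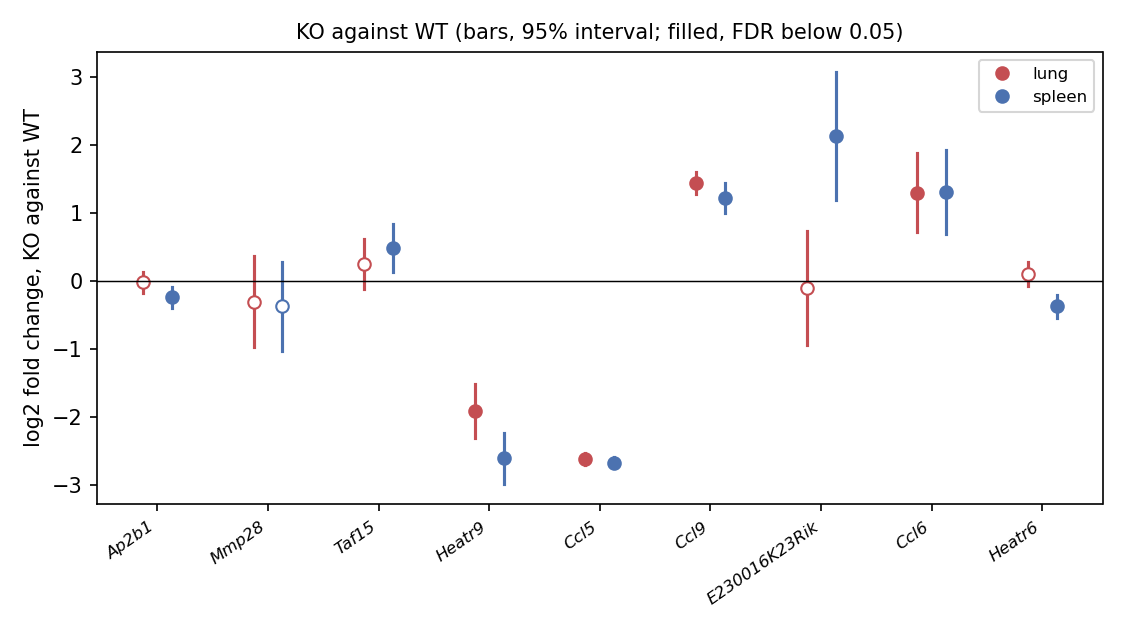
Log2 fold change of KO against WT for each gene in lung (red) and spleen (blue), in the order of the chromosome, with bars for the 95% interval and filled points where the adjusted p was below 0.05. *Heatr9* and *Ccl5* lie near -2 or below in both organs, *Ccl9* and *Ccl6* lie above 1 in both, and the other genes lie near 0 except *E230016K23Rik* in spleen.

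Counted together, 4 of the 9 genes passed the test in lung (44.4%), whereas 55.6% of all genes tested did. Of these, 2 were higher in KO, against 29.2% of all genes, and 2 were lower, against 26.4%. In spleen 8 of 9 passed, against 57.1% of all genes, with 4 higher (28.2% of all genes) and 4 lower (28.9%). As most genes tested passed, the FDR alone sets these genes apart little. With a change of at least 2-fold required as well, 4 of 9 passed in lung, against 13.6% of all genes, and 5 of 9 in spleen, against 10.6%. The median log2 fold change over the 9 genes was -0.02 in lung, where it was 0.02 over all genes, and -0.24 in spleen, where it was 0.00 over all genes.

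The 2-fold changes that were shared by both organs were rarer. The lung and spleen comparisons have no library in common. Of all genes tested, 91 (0.723%) were at least 2-fold lower and called in both organs, *Ccl5* and *Heatr9* among them, and 113 (0.897%) were at least 2-fold higher and called in both, *Ccl9* and *Ccl6* among them. The genes were chosen with earlier results of these data known, so these counts are given without a test. By size, 3.34% of all genes tested in lung had a change at least as large as that of *Ccl5*, 5.16% one as large as that of *Heatr9*, 8.06% one as large as that of *Ccl9* and 9.50% one as large as that of *Ccl6*. In spleen these shares were 1.94%, 2.13%, 7.76% and 6.88%.

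Of the 9 genes, 3 had KO effects that differed between organs at the FDR (*Heatr9*, *Heatr6* and *E230016K23Rik*), against 61.6% of all genes tested. None (0) of the 3 passed with DESeq2, or without replicate 2 of spleen KO. Between organs in WT, 4 of 9 genes differed (*Ccl5*, *Ccl9*, *Ap2b1* and *E230016K23Rik*), against 57% of all genes. All 4 were higher in lung, by 0.18 log2 units for *Ap2b1* (adjusted p = 0.046 by edgeR) up to 1.89 for *E230016K23Rik* (adjusted p = 0.0036 by edgeR). The latter was 3.0 without replicate 2 of spleen WT and lost its call with DESeq2 (adjusted p = 0.054). The *Ap2b1* call was lost with a replicate block (0.22, adjusted p = 0.069), with DESeq2, with library totals, with an assumed coefficient of variation of 0.2, without a filter, and when any 1 library other than replicate 2 of spleen KO was left out. In KO 6 of 9 differed, against 65.6% of all genes. These 6 (*Ccl5*, *Ccl9*, *Ccl6*, *Heatr9*, *Heatr6* and *Ap2b1*) were all higher in lung, by 0.28 to 1.55 log2 units. The shares of all genes between organs count both directions, so the common direction has no background here. *Ccl6* and *Heatr9* lost this call without replicate 2 of lung KO or replicate 2 of spleen KO, where *Heatr9* was 0.52 (adjusted p = 0.25 by edgeR) and 1.1 (adjusted p = 0.069 by edgeR). With an assumed coefficient of variation of 0.2, *Ccl9* alone kept it.

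Beyond the 9 genes, 21 other annotated genes lie within 250 kb of the deletion, and of these 11 had no read in any library and 5 were tested. They include *Ccl3* and *Ccl4*, which encode MIP-1α and MIP-1β, chemokines that activated NK cells release. *Ccl4* rose in both organs, by 0.27 log2 units in lung (adjusted p = 1.7e-07 by edgeR) and by 0.33 in spleen (adjusted p = 7.3e-07 by edgeR). *Ccl3* was at -0.10 in lung (adjusted p = 0.057 by edgeR) and rose by 0.59 in spleen (adjusted p = 2.3e-11 by edgeR). *1700020L24Rik* and *AA465934* did not pass the test in either organ.

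Over all genes tested, 55.6% passed in lung and 57.1% in spleen. Within 50 kb of the deletion 3 of 5 genes tested passed in lung and 5 of 5 in spleen. Of these 5 spleen calls, those of *Taf15* and *E230016K23Rik* were lost under some alternatives, as given above. The counts were 6 of 14 and 10 of 14 within 250 kb, and 16 of 33 and 18 of 33 within 1000 kb. The shares at the widest distance, 48.5% in lung and 54.5% in spleen, were close to those of all genes. Of the 33 genes, 6 were called and changed by at least 2-fold in the same direction in both organs. Among these, 4 were lower, against 0.723% of all genes tested, and 2 were higher, against 0.897%. *Ccl5*, *Heatr9*, *Ccl9* and *Ccl6* are among them and were chosen with earlier results of these data known, so no test is given. The others were *Gm11427* at -274 kb and *Slfn1* at -412 kb, both chosen for mention after their values were seen. Negative positions are on the side of *Ccl5*. The lung libraries of *Gm11427* held 4.72 and 3.63 CPM in WT and 1.02 and 1.09 CPM in KO. Its spleen libraries held 6.24 and 5.26 CPM in WT and 1.63 and 1.38 CPM in KO. It fell by 2.02 log2 units in lung (adjusted p = 3.2e-05 by edgeR) and by 1.98 in spleen (adjusted p = 1.7e-07 by edgeR), while the genes between it and *Taf15* showed no change of 2-fold in both organs.

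**Figure D5:**
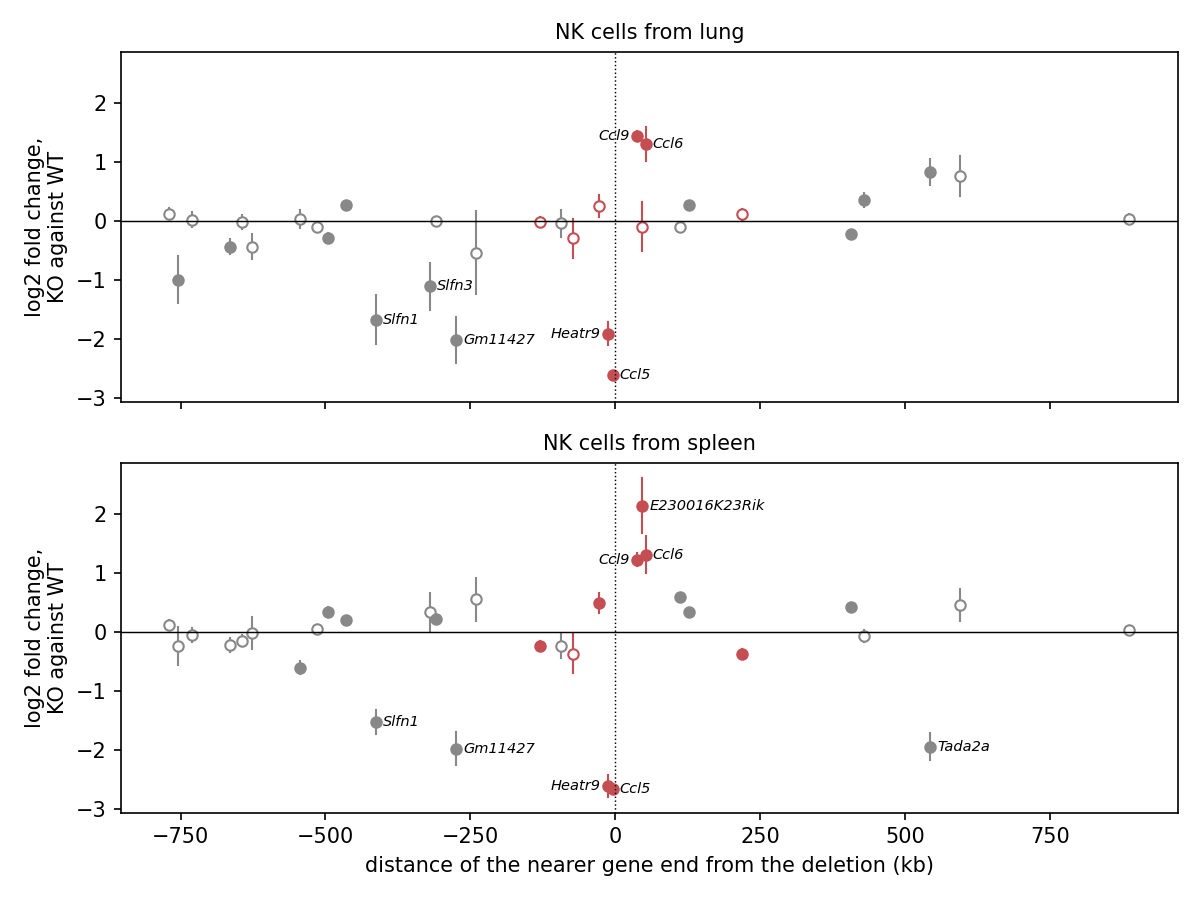
Log2 fold change of KO against WT (vertical axis, bars for 1 SE) against the distance in kb of the nearer gene end from the deletion, for genes tested within 1000 kb (1 of the 33 is not drawn), in lung and in spleen. The 9 described genes are red, points are filled where the adjusted p was below 0.05, and genes that changed at least 2-fold are named. Large changes in both organs lie at *Ccl5*, *Heatr9*, *Ccl9* and *Ccl6*, and at *Gm11427* and *Slfn1* further left.

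Of 8 other CC chemokine genes of chromosome 11 (*Ccl1*, *Ccl2*, *Ccl3*, *Ccl4*, *Ccl7*, *Ccl8*, *Ccl11* and *Ccl12*), *Ccl3* and *Ccl4* alone were tested, and *Ccl2*, *Ccl7* and *Ccl11* had no read in any library. *Ccl1* had 0 reads in all 4 WT libraries and 2 to 5 reads in each KO library. *Ccl8* held 3 and 5 reads in lung KO and 0 elsewhere.

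Of 14 genes for factors known or proposed to act on *Ccl5*, 13 were tested. In lung 6 rose and none (0) fell, and in spleen 1 rose and 6 fell. Over all genes tested, 29.2% rose and 26.4% fell in lung, and 28.2% rose and 28.9% fell in spleen. *Runx3* was at 0.02 in lung (adjusted p = 0.83 by edgeR) and -0.02 in spleen (adjusted p = 0.82 by edgeR), and *Runx1* was at -0.04 and -0.03 (adjusted p = 0.59 and 0.74 by edgeR). *Runx2* was at -0.10 in lung (adjusted p = 0.39 by edgeR) and fell in spleen, at -0.24 (adjusted p = 0.019 by edgeR). *Cbfb*, which encodes the partner subunit of the RUNX proteins, was at -0.05 in lung (adjusted p = 0.40 by edgeR) and fell in spleen, at -0.18 (adjusted p = 0.00054 by edgeR). *Tbx21*, which encodes the NK cell regulator T-bet, moved in opposite directions. In lung it was at 216 and 221 CPM in WT and at 478 and 480 CPM in KO, whereas spleen WT held 341 and 331 CPM and spleen KO 150 and 147 CPM. Its effects differed by 2.31 log2 units (SE 0.06, adjusted p = 3.4e-27 by edgeR). *Rela*, a subunit of NF-κB, showed the same pattern, with 0.999 in lung (adjusted p = 2.8e-12 by edgeR) and -0.87 in spleen (adjusted p = 3.6e-12 by edgeR). *Ccl5* fell in both organs, and whether any of these factors bears on its fall was not tested.

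Among 5102 genes with a mean above 5 on the log2 CPM scale, those most like *Ccl5* over the 8 libraries were *Gps2*, *Thap7*, *Wdr20*, *Immt* and *Rqcd1*, with Pearson's r of 0.988, 0.982, 0.972, 0.968 and 0.962. The 8 libraries fall into WT and KO clusters of *Ccl5* level and each library's scaling is shared by all genes, so these coefficients are descriptions, with no p. The log2 fold changes of these genes were small, from -0.53 to -0.14 in lung and from -0.41 to -0.12 in spleen. The genes of this level with the largest fall in both organs were *Hhex* (-0.64 in lung and -0.61 in spleen), *Fam76b* (-0.60 and -0.57), *Npc1* (-0.52 and -1.11), *Tmem68* (-0.55 and -0.50) and *Tsc22d1* (-0.47 and -0.45), so that no gene above that mean level other than *Ccl5* fell by 2-fold in both organs. Among the genes near the deletion, r with *Ccl5* was 0.975 for *Heatr9*, -0.867 for *Ccl6*, -0.765 for *Taf15* and -0.614 for *Ccl9*.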

How the data were processed

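RNA-seq was performed on 8 libraries of sorted NK cells, with 2 libraries in each of 4 groups (lung and spleen, WT and KO), as given in the sample titles. The deposited files hold raw read counts per gene symbol, 1 table per library, made by the authors from 50 bp reads with HISAT2 2.1.0 and HTSeq 0.11.1 on mm10, per the submitters' processing notes. The annotation and strand setting of the counting are not given in the sources used here. Reads counted on genes were 44.3% to 46.6% of uniquely mapped reads, and rows that name no gene were left out.

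Counts were filtered with filterByExpr (12595 of 48321 symbols kept), scaled by TMM and fitted across all 8 libraries with edgeR 4.0.16 (quasi-likelihood test, R 4.3.3, limma 3.58.1) as 4 group means, and p was adjusted over all genes tested. CPM used TMM-scaled library sizes and RPKM the exon length of GENCODE M21. An exact permutation test of 2 against 2 libraries cannot go below 0.333 (two-sided), so single values were not tested that way. Alternatives were other scalings, filters, DESeq2 1.42.0, an assumed coefficient of variation of 0.2, a GC offset, a block for replicate number, and leaving out libraries. On simulated counts for the lung comparison (12112 genes), 59.2% of 76 genes changed 1.5-fold, 80.4% of 56 changed 2-fold and 98.3% of 59 changed 4-fold were recovered. Of the calls, 3.27% were false. The genes changed in the simulation were few, whereas 55.6% of genes passed in the lung comparison itself, so these rates may not hold there. All 9 genes by name are described, with counts over gene lists, the most similar genes by Pearson's r, and those with the largest fall in both organs. The genes and lists were chosen with earlier results of these data known. Some items are not reported here.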

Additional observations from a re-analysis of the deposited data

Results flagged for a closer look

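For 3 of the 9 genes the KO effect differed between lung and spleen by the interaction test (edgeR, adjusted over all genes tested), as it did for 61.6% of all genes. The lung effect minus the spleen effect was 0.693 log2 units for *Heatr9* (adjusted p = 0.038), whose fall was larger in spleen, 0.481 for *Heatr6* (adjusted p = 0.00086), and -2.23 for *E230016K23Rik* (adjusted p = 0.0032), which rose in spleen. Without replicate 2 of spleen KO the values were 0.93, 0.39 and -1.62, with adjusted p of 0.15, 0.058 and 0.19.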

How the results depend on the processing

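The KO effects of *Ccl5*, *Ccl9*, *Ccl6* and *Heatr9* in lung and in spleen kept their direction and passed the test under every alternative that gave a value. *Ccl5* lay between -2.82 and -2.52 in lung and between -2.74 and -2.52 in spleen. Library totals moved the median of all genes by 0.16 in the organ difference of KO effects (here the interaction) and by -0.11 between organs in WT. With library totals, 6 of the 9 genes passed in the interaction, in which *Ccl5* was 0.22 and *Ccl6* 0.15, while *Ap2b1* was 0.076 in lung and *Heatr6* was -0.065 between organs in WT. With at least 10 counts in every library, 2 genes passed in lung (2 at 2-fold) and 5 in spleen (2 at 2-fold), since low genes were no longer tested. DESeq2 called 5 genes in spleen, 0 in the interaction and 2 between organs in WT, and gave -0.22 for *Mmp28* in the interaction. With an assumed coefficient of variation of 0.2, 5 genes passed in spleen, 5 of those within 250 kb in spleen, 1 in the interaction, 2 between organs in WT and 1 in KO, and the interaction was 0.0018 for *Ccl6* and -0.10 for *Mmp28*. With the GC offset the interaction was -0.30 for *Ccl5*, 0.061 for *Ccl6* and -0.59 for *Mmp28*, and *Heatr6* was -0.018 in lung. The causes were not tested. Counts of genes that passed under an alternative, here and below, stand without the share of all genes under that setting. They therefore do not set these genes apart from others.

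Replicate numbers are shared by the titles only. Deviations of same-numbered libraries from their group means correlated at -0.0139 in lung and 0.169 in spleen over 5103 genes. With the replicate block, 4 genes passed in lung and 8 in spleen, and *E230016K23Rik* was 0.20 between organs in KO, of opposite sign. The block also lost the calls between organs of *Ap2b1* in WT (0.22, adjusted p = 0.069) and of *Ccl6* in KO (0.56, adjusted p = 0.27), and changed no other call on these genes. With the GC offset and replicate block together, 5 genes passed in the interaction, which was -0.30 for *Ccl5*, 0.046 for *Ccl6* and -0.63 for *Mmp28*, and *E230016K23Rik* was 0.16 between organs in KO. In that fit *Mmp28* passed in lung (-0.82, adjusted p = 0.028), and *Ccl5* (0.023) and *Ccl6* (0.55) did not pass between organs in KO.

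When each library was left out in turn, 4 to 8 genes passed in spleen (6 to 11 of those within 250 kb) and 0 to 3 in the interaction, the lowest counts being those without replicate 2 of spleen KO. Signs changed for values near 0 and for some larger ones, such as *Mmp28* in spleen (-0.37 with all libraries) and between organs in KO (0.48). Values that changed sign ran in lung from -0.042 to 0.029 for *Ap2b1*, -0.90 to 0.011 for *Mmp28* and -0.55 to 0.15 for *E230016K23Rik*. In spleen they ran from -0.70 to 0.70 for *Mmp28*. The interaction ran from -0.023 to 0.12 for *Ccl5*, -0.22 to 0.53 for *Ccl6*, -0.40 to 0.051 for *Taf15* and -0.996 to 0.41 for *Mmp28*. Between organs, WT ran from -0.0021 to 0.26 for *Heatr9* and -0.052 to 0.11 for *Heatr6*, and KO from -0.029 to 0.19 for *Taf15*, -0.12 to 0.79 for *Mmp28* and -0.79 to 0.27 for *E230016K23Rik*. In all, 729 results for single genes were unchanged in direction and call, 54 lost a call, 9 gained one and 33 changed sign.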
